A study of Homo sapiens with 17 samples.

Results

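RNA levels of 10 genes were followed through 15 RNA-seq libraries of the human B-cell lymphoma lines WSU-DLCL2 and Karpas-422. The genes were CAMK4, SRC, CDK18, GCA, NIBAN1, ZYX, ANK2, MTMR2, CLEC2B and FBN1, out of 63677 genes counted in each library. They were chosen by measured values: each had been noted as far lower in 3 WSU-DLCL2 clones labelled as BCL11A knockouts than in untreated WSU-DLCL2 replicates 1 and 2. The low clone values are therefore a description of how the list was made, and no test is given for them. Untreated replicate 3, WSU-DLCL2 treated with A-485 and all of Karpas-422 did not enter that choice.

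Both lines are established from diffuse large B cell lymphoma. Each was left untreated or treated for 48 h with A-485, a small molecule that blocks the acetyltransferase site of p300 and its relative CBP (products of EP300 and CREBBP), with 3 libraries per group. The libraries called untreated in the labels carry DMSO, the usual solvent of such inhibitors, in the names under which their counts were deposited. The last group was clone 1, clone 2 and clone 3 of WSU-DLCL2, each with 1 library. The sources used here do not give how BCL11A was disrupted, and no unedited clone was analysed here, so passage through a single cell and loss of BCL11A cannot be told apart. Nor do the labels say whether untreated or A-485 replicates came from separate cultures, so p-values here cover the spread among libraries, which may be no more than technical. For untreated WSU-DLCL2 replicate 3 the title and source name read as the untreated line while the treatment entry reads A-485. It was kept as untreated by its title. The number of genes called by edgeR in the clones and the range of the members' fold changes are also given without it. Other fits of clones against untreated libraries are given with it only.

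The clones held 29669098 to 34904926 counts in genes, untreated WSU-DLCL2 held 21233752 (replicate 3) to 37286727, Karpas-422 held 6949770 to 8897051, and WSU-DLCL2 with A-485 held 6689320 to 7086106. The first 6 libraries are called deep here and the other 9 shallow. The kinds also differed in content: ACTB, the gene of beta-actin, had 3432 to 9994 CPM (counts scaled by the library's total in genes) in the deep libraries and 3.20 to 31.9 CPM in the shallow ones. Levels are therefore compared within a kind only. All 11 B-cell markers examined had counts in all 15 libraries. BCL11A RNA itself was no lower in the clones, with 58.8, 69.6 and 51.9 CPM in clones 1 to 3 against 46.8, 45.7 and 73.5 CPM in untreated replicates 1 to 3 (log2 fold change 0.13 ± 0.21 SE, Benjamini-Hochberg adjusted p = 0.915 in edgeR's quasi-likelihood test). A count per gene does not show whether the RNA encodes an intact protein.

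BCL11A is a DNA-binding zinc-finger protein needed in B-cell development and best known as a repressor of fetal globin genes in red cell precursors, where it recruits corepressor complexes to DNA. p300 and CBP are coactivators that acetylate histones at enhancers and promoters, and CBP was first described as the partner of the transcription factor CREB. The 10 genes share no single pathway. Their products range from protein kinases and calcium sensors to cytoskeletal adaptors, a lipid phosphatase, a surface lectin and a matrix protein.

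Promoter sequence was examined for letters the members might share. RefSeq (GRCh38.p14) held 24 promoter windows for 8 of the 10 genes, each 300 bases long (250 before a transcription start and 50 after it). SRC and CLEC2B had no entry. Windows were searched on both strands for TGACCA (letters that BCL11A is known to bind), for the octamer ATTTGCAT of POU factors, and for TGACGTCA, the cAMP response element bound by CREB. None of the 3 motifs overlapped another in the windows shown. The 250 bases before one start are printed for ANK2, the single member with a match, for CAMK4, the member furthest apart between clones and replicates 1 and 2, and for FBN1, the member for which replicate 3 lay below every clone. Capitals mark a motif on either strand (TGGTCA is TGACCA read from the other strand).
ANK2, chr4:112818409-112818658, plus strand: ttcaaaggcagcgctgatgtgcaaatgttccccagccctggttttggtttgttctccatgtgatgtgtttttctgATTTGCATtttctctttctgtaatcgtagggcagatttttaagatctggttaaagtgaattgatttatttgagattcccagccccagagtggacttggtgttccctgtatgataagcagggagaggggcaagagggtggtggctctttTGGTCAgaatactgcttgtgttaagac
CAMK4, chr5:111223333-111223582, plus strand: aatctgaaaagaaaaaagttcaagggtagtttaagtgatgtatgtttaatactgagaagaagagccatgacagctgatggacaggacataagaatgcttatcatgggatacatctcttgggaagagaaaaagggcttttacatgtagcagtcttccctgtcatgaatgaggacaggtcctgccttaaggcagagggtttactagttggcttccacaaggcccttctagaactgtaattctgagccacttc
FBN1, chr15:48644971-48645220, minus strand: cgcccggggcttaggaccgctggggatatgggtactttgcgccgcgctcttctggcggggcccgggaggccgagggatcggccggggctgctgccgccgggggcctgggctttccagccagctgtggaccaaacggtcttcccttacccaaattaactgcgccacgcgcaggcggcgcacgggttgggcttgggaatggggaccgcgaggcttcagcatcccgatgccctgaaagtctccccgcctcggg

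In ANK2 the octamer began 175 bases and TGGTCA 27 bases before the start, and a second ANK2 window held TGACCA as well. TGACCA was thus found in 1 of 8 members and 2 of 24 windows, beside 12.9% of 27305 genes and 10.7% of 35116 windows in the whole RefSeq table. The octamer was present in 1 of 8 members and 1 of 24 windows, beside 2.19% of genes and 1.77% of windows. TGACGTCA was present in 0 of 8 members, beside 2.25% of genes. The members had more windows per gene than the whole table (24 for 8 genes, against 35116 for 27305). ANK2 had the most windows of any member. The shares by gene therefore do not compare equal lengths of sequence, and no excess is read from them. The median GC content of the members' windows was 57.2%, against 58.7% for all windows. These matches describe letters within short windows and are not binding data.

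Levels in the deep libraries are given first for the 3 kinases. CAMK4, a calcium/calmodulin-dependent kinase of the nucleus that phosphorylates CREB, had 14.2 and 14.8 CPM in untreated replicates 1 and 2, the latter from 550 counts. The clones had 6, 7 and 6 counts, or 0.202, 0.201 and 0.179 CPM. Replicate 3 had 34 counts, or 1.60 CPM. The clones were thus nearly equal to each other, and replicate 3 lay between them and its fellow replicates. Over pooled counts, replicates 1 and 2 stood 74.9 times above the clones (95% exact binomial interval 47.7 to 125, for counting error only). Here and below, fewer cells carrying a transcript and less transcript per cell cannot be told apart in bulk RNA.

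SRC, the founding member of the Src family of tyrosine kinases, had 18.7 and 20.3 CPM in replicates 1 and 2 (637 and 758 counts). Its clone values were 2.26, 3.64 and 1.998 CPM (67, 127 and 67 counts), and its replicate 3 value was 7.96 CPM. The 3 clones lay below all 3 untreated libraries. CDK18, a kinase of the PCTAIRE group of cyclin-dependent kinases, was the scarcest of the 3, with 58, 62 and 47 counts in untreated replicates 1 to 3 (1.70, 1.66 and 2.21 CPM). Clones 1 to 3 had 7, 6 and 4 counts (0.236, 0.172 and 0.119 CPM). CDK18 is the member for which replicate 3 was the highest library of all 6.

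Next came a calcium sensor and a stress protein. GCA encodes grancalcin, a penta-EF-hand protein first found in neutrophil granules. It had 13.3 and 14.5 CPM in replicates 1 and 2 (454 and 540 counts) and 0.801 CPM (17 counts) in replicate 3. The clones ran from 5 counts in clone 3 and 10 in clone 1 to 38 in clone 2, or 0.149, 0.337 and 1.09 CPM. Clone 2 therefore exceeded replicate 3, and the 2 groups overlapped once replicate 3 was counted. NIBAN1, a protein induced in endoplasmic reticulum stress that bears on translation, was the most abundant member. Its levels were 75.5, 72.3 and 11.8 CPM in untreated replicates 1 to 3 and 7.55, 3.35 and 7.19 CPM in clones 1 to 3. The lowest clone held 117 counts of NIBAN1, so its low level there is measured well above counting noise.

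Cytoskeletal members were ZYX and ANK2. Zyxin, the product of ZYX, is a LIM-domain protein of focal adhesions and stress fibres. ZYX had 366, 380 and 52 counts in untreated replicates 1 to 3 (10.8, 10.2 and 2.45 CPM) and 34, 33 and 41 in the clones (1.15, 0.945 and 1.22 CPM). All 3 clones lay below replicate 3. ANK2 encodes ankyrin-B, which ties ion channels and transporters to the spectrin skeleton under the membrane. It had 8.52, 7.48 and 2.03 CPM in untreated replicates 1 to 3, against 0.101, 0.315 and 0.209 CPM in clones 1 to 3, from 3, 11 and 7 counts. Over pooled counts ANK2 stood 37.3 times higher in replicates 1 and 2 than in the clones (interval 24.1 to 60.7).

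The remaining members work at the surface, in the matrix and on endosomal lipids. CLEC2B, a C-type lectin that NK cells recognise through the receptor NKp80, had 80 and 89 counts in replicates 1 and 2 (2.35 and 2.39 CPM), 8 in replicate 3 (0.377 CPM) and 1, 1 and 2 in the clones. With so few clone counts its pooled ratio of 58.1 was the least precise (interval 22.3 to 216). FBN1, the gene of fibrillin-1 in extracellular microfibrils, had 6.58 and 7.21 CPM in replicates 1 and 2 and 0.977, 0.917 and 0.895 CPM in the clones. Replicate 3 had 10 counts of FBN1, or 0.471 CPM, below every clone. MTMR2, a myotubularin phosphatase that removes a phosphate from endosomal phosphoinositides, had 13.2 CPM in both of replicates 1 and 2 and 8.95 CPM in replicate 3. Its clone values of 1.95, 1.69 and 1.85 CPM hardly varied and lay below all untreated libraries.

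**Figure D1:**
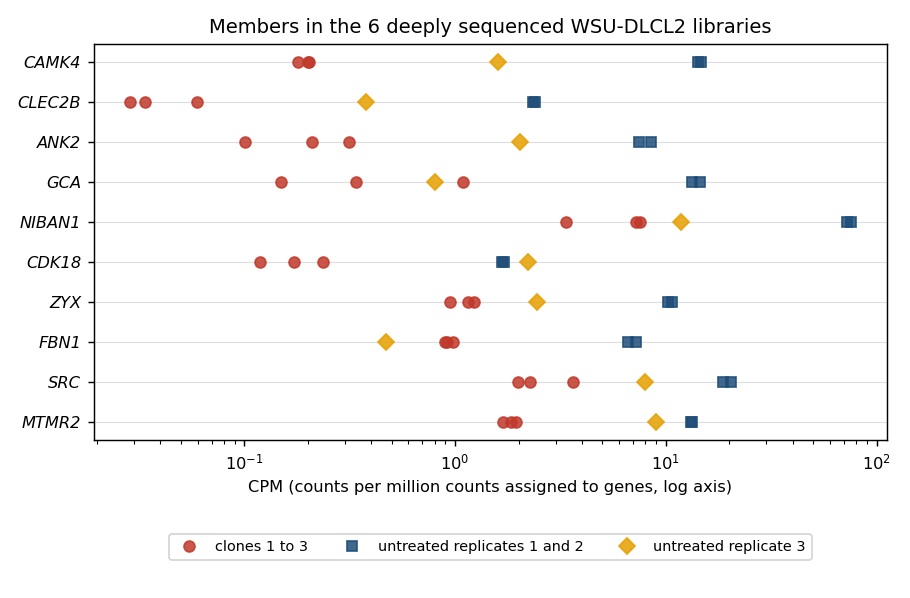
CPM of each member on a log axis in the 6 deep WSU-DLCL2 libraries, 1 point per library, with clones 1 to 3, untreated replicates 1 and 2, and untreated replicate 3 marked apart. All 10 members are lower in every clone than in replicates 1 and 2, and replicate 3 ranges from below the clones for FBN1 (0.471 CPM) to the top of the 6 libraries for CDK18 (2.21 CPM).

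In mean CPM, replicates 1 and 2 stood above the clones 74.8-fold for CAMK4, 58.2-fold for CLEC2B, 38.4-fold for ANK2 and 26.5-fold for GCA. The other 6 members formed a lower tier, from 12.3-fold for NIBAN1 through CDK18 (9.58), ZYX (9.48), FBN1 (7.42) and SRC (7.42) to MTMR2 (7.22). On the log2(CPM + 0.5) scale, which shrinks the difference of scarce genes, the members' median difference was -2.74, against 0.02 over all 16152 genes tested. At least 4-fold lower by this scale were 0.483% of genes (78 genes), 9 members among them. Of these 9 members FBN1 had the smallest difference, at -2.37, and CDK18 lay outside the bound at -1.70. The members did not fill the top of this order: CAMK4, GCA, ANK2 and NIBAN1 held ranks 2 to 5 and the rest ranks 24 to 132. All 10 had every clone below replicates 1 and 2, as did 18.4% of genes. All but GCA and FBN1 had every clone below all 3 untreated libraries, 8 members in number, as did 8.02% of genes. Since these contrasts chose the members, nothing is read from the counts.

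The fit over all genes shows what replicate 3 does to this comparison. edgeR's quasi-likelihood test of clones against all 3 untreated libraries called 0.0% of 16152 genes at an adjusted p under 0.05. In that fit 1117 genes had an unadjusted p under 0.05, and DESeq2 called 315. Without replicate 3 edgeR called 351 genes, of which 281 (1.69% of 16607) were lower in the clones. For the members, the fitted log2 fold changes with replicate 3 lay between -2.37 (FBN1) and -5.70 (CAMK4). Without replicate 3 they lay between -2.86 (MTMR2) and -6.21 (CAMK4), and every member except CDK18 moved further from zero. CDK18 went from -3.38 to -3.25.

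The place of replicate 3 differed by gene. It was expressed as a position on the log2(CPM + 0.5) scale, with 0 at the mean of the clones and 1 at the mean of replicates 1 and 2, and a value under 0.5 was read as lying with the clones. By this measure replicate 3 lay with the clones for 6 members: FBN1 (-0.24), GCA (0.11), NIBAN1 (0.27), CLEC2B (0.29), ZYX (0.32) and CAMK4 (0.36). It did not for 4: ANK2 (0.51), SRC (0.54), MTMR2 (0.79) and CDK18 (1.19). ANK2 and SRC sat at the boundary. On plain CPM they moved to 0.23 and 0.32 and joined the clones, making 8 members.

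As a share of the mean of replicates 1 and 2, replicate 3 kept 5.76% of GCA, 6.83% of FBN1, 11.04% of CAMK4, 15.9% of NIBAN1, 15.9% of CLEC2B, 23.4% of ZYX and 25.3% of ANK2. SRC kept 40.8%, MTMR2 67.7%, and CDK18 stood at 132%. MTMR2 and CDK18 are thus the members for which replicate 3 did not lie with the clones on either scale.

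Replicate 3 sat near the clones for many other genes too. It lay nearer the clones in 60.3% of the 78 genes that were at least 4-fold lower there than in replicates 1 and 2, and in 59.4% of the 69 such genes that are not members. The median position was 0.32 for the 78 genes and 0.34 for the members, which hardly differ. Among the 6 genes at least 4-fold higher in the clones, it lay nearer the clones in 83.3%. Their median position was 0.47, close to the boundary of 0.5.

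**Figure D2:**
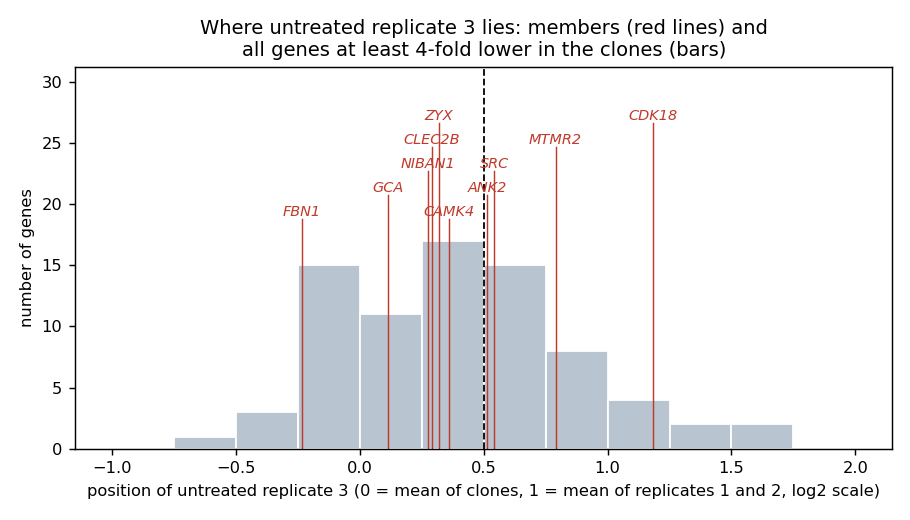
Position of untreated replicate 3 between the mean of the clones (0) and the mean of untreated replicates 1 and 2 (1) on the log2(CPM + 0.5) scale, as red lines for the members and as bars counting the 78 genes at least 4-fold lower in the clones. The 6 members left of the dashed line at 0.5 run from FBN1 (-0.24) to CAMK4 (0.36), and CDK18 (1.19) lies beyond replicates 1 and 2.

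Other features of replicate 3 moved along with the members. Its log2 differences from the mean of replicates 1 and 2 had an SD of 0.837 over all tested genes, against 0.451, 0.453 and 0.524 for clones 1 to 3. ACTB stood at 3432 CPM in replicate 3, 9852 and 9994 CPM in replicates 1 and 2, and 7270 to 8640 CPM in the clones. Plasma cell markers summed to 946 CPM in replicate 3, most of it JCHAIN, the joining chain of antibodies. The sum was 388 and 385 CPM in replicates 1 and 2 and 539 to 794 CPM in the clones. It does not stand for the whole list, since IRF4 went the other way. IRF4 differed by -2.67 (log2(CPM + 0.5)) between clones and replicates 1 and 2, with replicate 3 at position 0.24, with the clones. Myeloid markers summed to 79.4 CPM in replicate 3 and 36.9 to 49.2 CPM in the other deep libraries. These sums were nearly all SPI1, with 79.0 CPM in replicate 3 and 36.3 to 48.9 CPM in the others. The other 9 of the 10 myeloid markers were under 1 CPM in each deep library. The part of these features in the members' levels was not tested.

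For FBN1, a gene typical of fibroblasts, the collagen genes COL1A2, COL3A1 and COL6A1 had 0 counts in all 6 deep libraries. COL1A1, the other collagen gene listed, had counts in every untreated library and 0 in every clone, the same direction as FBN1. The 10 fibroblast markers summed to 20.6 to 30.0 CPM in untreated libraries and 28.8 to 75.0 CPM in the clones, most of it DCN. The sum was thus not lower in the clones, but 8 of the 10 markers were under 1 CPM in each deep library. For CAMK4 and CLEC2B, which lymphocytes of other kinds also express, the T and NK cell list was examined. It summed to 2.54 to 11.2 CPM in untreated libraries and 4.15 to 17.8 CPM in the clones. Most of each sum was CD247, with 2.12 to 10.5 CPM in untreated libraries and 3.64 to 17.1 CPM in the clones. The other 9 of the 10 markers were under 1 CPM in each deep library. CD2 and CD7 were at 0 in all 6.

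The clones agreed closely on some members and not on others. Highest and lowest clone differed 1.09-fold for FBN1, 1.13-fold for CAMK4, 1.16-fold for MTMR2 and 1.29-fold for ZYX. The ratio was 1.82 for SRC, 1.98 for CDK18, 2.08 for CLEC2B and 2.25 for NIBAN1, where clone 2 was the lowest. It was widest for ANK2 (3.12) and GCA (7.30), both highest in clone 2. For CDK18, CLEC2B, CAMK4 and ANK2 these ratios rest on at most 11 counts per clone. The ratio for GCA rests on 5 counts in its lowest clone and 38 in its highest.

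Per kilobase of exon, the members spanned a broad range of starting levels in replicates 1 and 2. NIBAN1 was the highest at 8.83 CPM per kb, followed by GCA (3.80), SRC (3.02), ZYX (3.01) and MTMR2 (2.16). Below them came CAMK4 (1.04), CLEC2B (0.898), ANK2 (0.439), FBN1 (0.430) and CDK18 (0.246). SRC and ZYX differed by less than the gap between replicates 1 and 2, and so did ANK2 and FBN1. The size of the difference to the clones did not follow this order, as CLEC2B and ANK2 stood among the largest and NIBAN1 in the middle.

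Genes next to the members were mostly level between clones and replicates 1 and 2. The 2 protein-coding genes on either side of each member, by RefSeq gene order, gave 40 genes, of which 21 passed the filter. Their median log2(CPM + 0.5) difference was -0.07. At least 4-fold lower were 2 of the 21, beside 78 of all 16152 genes tested (0.483%). IFIH1, the RNA sensor MDA5 and a neighbour of GCA, had 5.82, 5.98 and 0.706 CPM in untreated replicates 1 to 3 and 0.202, 0.344 and 0.119 CPM in clones 1 to 3. CD69, an activation antigen close to CLEC2B, had 2.20, 2.68 and 0.0942 CPM against 0.0337, 0.573 and 0.0596 CPM. CAMK2D, beside ANK2, differed by -0.23. The neighbours were taken after the members' results were known.

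**Figure D3:**
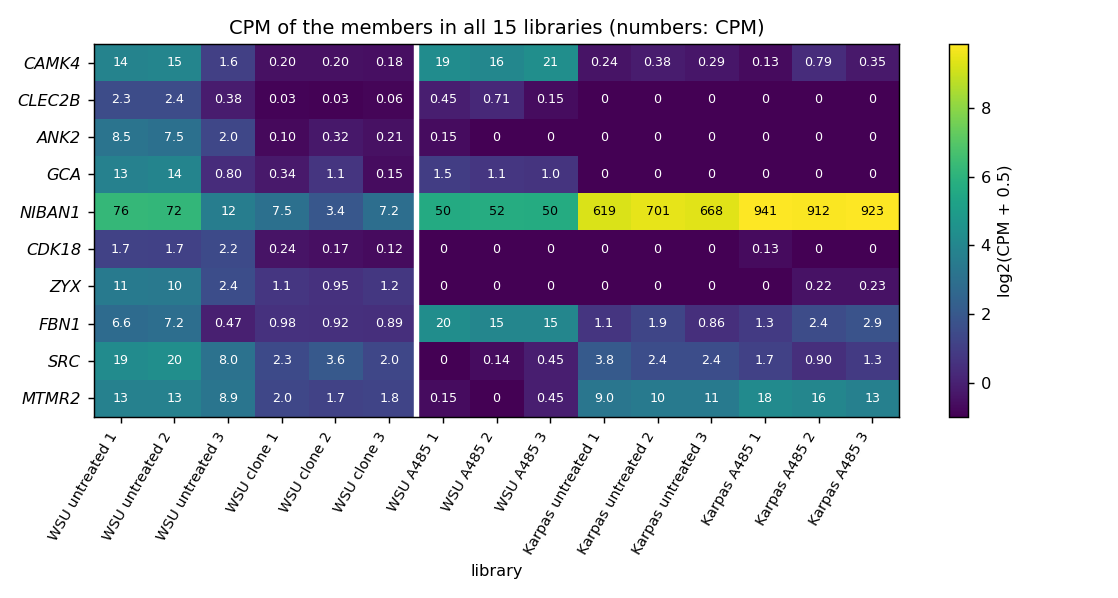
CPM of the 10 members (rows) in all 15 libraries (columns, by group), without TMM scaling, with the value written in each cell, colour as log2(CPM + 0.5), and a white line between deep and shallow libraries. CAMK4, NIBAN1 and FBN1 are the members above 10 CPM in WSU-DLCL2 with A-485, and NIBAN1 stands far above the other members in Karpas-422.

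In WSU-DLCL2 with A-485 the members split into present and near-absent genes. NIBAN1 had 50.1, 52.1 and 50.5 CPM, CAMK4 had 19.0, 16.1 and 20.5 CPM, and FBN1 had 19.9, 15.4 and 15.3 CPM. GCA had 1.04 to 1.49 CPM and CLEC2B 0.149 to 0.706 CPM. ZYX and CDK18 had 0 counts in all 3 libraries, where 3 counts over the group would be 0.146 CPM, and ANK2, MTMR2 and SRC had at most 0.447 CPM. These libraries are shallow and the untreated WSU-DLCL2 libraries are deep, so the treatment and the library type cannot be told apart and no comparison is made.

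Karpas-422 offered the test that the choice of members did not use, since both of its groups are shallow and of another line. Of the 10 members, 4 passed the filter on low counts there and 6 did not. The test asked whether 48 h of A-485 shifted them. SRC had 4.18, 2.88 and 2.88 TMM-scaled CPM untreated and 1.45, 0.786 and 1.12 with A-485. This is a low level, from 31, 19 and 17 counts untreated and 13, 8 and 11 with A-485. The groups do not overlap, and SRC was lower with A-485 in 3 of 3 libraries. Its mean went from 3.31 ± 0.749 to 1.12 ± 0.330 CPM (SD, n = 3 libraries per group), a log2 fold change of -1.59 ± 0.31 SE with a Benjamini-Hochberg adjusted p of 0.000350 over all genes in edgeR's quasi-likelihood test.

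The other 3 did not pass the test. NIBAN1, abundant in this line, had 683, 832 and 786 CPM untreated and 816, 798 and 804 CPM with A-485, all inside the untreated range. Its log2 fold change was 0.07 ± 0.06 (edgeR adjusted p = 0.330), with an interval of 2 SE from -0.06 to 0.20. MTMR2 had 9.98, 12.5 and 12.5 CPM untreated and 15.4, 13.6 and 11.2 CPM with A-485, and the groups overlapped (0.20 ± 0.16, edgeR adjusted p = 0.267, interval -0.12 to 0.52). FBN1 had 1.21, 2.28 and 1.02 CPM against 1.11, 2.06 and 2.54 CPM, at so low a level that its interval ran from -0.41 to 1.12 (0.35 ± 0.38, edgeR adjusted p = 0.422).

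Thus 1 of 4 tested members was lower with A-485, beside 33.7% of 11846 genes, and 0 were higher, beside 37.6%. The tested members' median log2 fold change was 0.14, against 0.08 for all genes. A count near such a background is no result about the members as a list. Scaling by library totals alone moved the median of all genes to 0.49 and the split of calls from 4459 higher and 3998 lower to 6465 higher and 2290 lower. NIBAN1 (0.48, edgeR adjusted p = 6.35e-07) and MTMR2 (0.61, edgeR adjusted p = 0.00342) were then called higher, while SRC was still lower (-1.19, edgeR adjusted p = 0.00423). The call for SRC thus held under both scalings, and those for NIBAN1 and MTMR2 depended on the scaling.

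**Figure D4:**
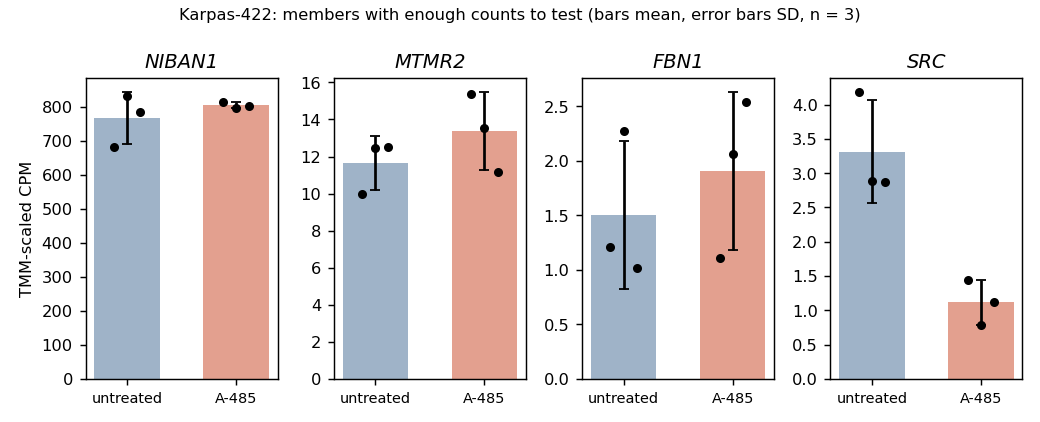
TMM-scaled CPM of the 4 members tested in Karpas-422, untreated and with A-485 for 48 h, on linear axes with a range of their own, with 1 point per library, bars at the mean and error bars of 1 SD (n = 3). SRC goes from a mean of 3.31 to 1.12 CPM without overlap, and NIBAN1, MTMR2 and FBN1 overlap between groups.

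Among the 6 untested members, GCA, CLEC2B and ANK2 had 0 counts in all 6 Karpas-422 libraries, where 3 counts over a group would be 0.131 CPM untreated and 0.119 CPM with A-485. ZYX had 0 counts untreated and 4 with A-485, and CDK18 had 0 and 1. CAMK4 had 2, 3 and 2 counts untreated and 1, 7 and 3 with A-485. These depths cannot show whether A-485 changed the 6 genes. As for the proteins acted on, BCL11A RNA fell with A-485 in Karpas-422 (log2 fold change -1.33 ± 0.06, edgeR adjusted p = 1.65e-10), and EP300, which encodes p300, did not pass the test (0.10 ± 0.13, edgeR adjusted p = 0.498). CREBBP, which encodes CBP, rose, with 75.4, 76.4 and 76.5 TMM-scaled CPM untreated and 102, 103 and 95.7 with A-485 (0.40 ± 0.06, edgeR adjusted p = 5.63e-05).

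Relatives and partners of the members were taken as 10 lists with 175 genes besides the members. In the clones, 139 of them passed the filter. Their median fitted log2 fold change was -0.03, against -0.01 for all genes. At least 4-fold lower than in replicates 1 and 2 were 4 of the 139, beside 0.483% of all 16152 genes. FYN, a Src-family kinase of lymphocytes, had 12.5, 12.8 and 8.10 CPM in untreated replicates 1 to 3 and 1.92, 4.01 and 2.45 CPM in clones 1 to 3. The spectrin gene SPTBN1, whose product binds ankyrins, had 17.8, 17.8 and 4.19 CPM against 4.65, 1.58 and 1.16 CPM. The membrane-skeleton gene EPB41L2 had 25.1, 26.6 and 15.6 CPM against 3.34, 9.45 and 3.40 CPM. The fourth was CD69. For FYN and EPB41L2 all 3 clones lay below all 3 untreated libraries, as for SRC and ANK2 in the same lists and for 8.02% of all genes.

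In Karpas-422, 98 of these genes were tested with A-485: 41 rose and 35 fell, with a median log2 fold change of 0.05. These shares are near those over all 11846 genes (37.6% higher and 33.7% lower, median 0.08), so they are no result about the relatives. With library totals alone 56 rose and 15 fell, and the counts by list below hold for TMM scaling. Of the relatives named here, all kept their direction and their call under that scaling except PEF1, which was no longer called (-0.11, edgeR adjusted p = 0.186). In the calcium/calmodulin kinase and calcineurin list of CAMK4, 12 of 21 rose and 5 fell. PPP3R1, the regulatory subunit of calcineurin, fell by 0.67 and the CREB coactivator gene CRTC3 rose by 0.50 (log2). In the Src-family list, 7 of 14 rose and 6 fell. FYN rose from 9.48 ± 1.48 to 43.1 ± 0.620 CPM (log2 fold change 2.17 ± 0.12, edgeR adjusted p = 1.43e-09) and the focal adhesion kinase gene PTK2 rose by 1.24, while SRC fell. Within the Src family, A-485 thus moved SRC and FYN in opposite directions in Karpas-422, whereas both were low in the clones.

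In the zyxin and focal adhesion list, 4 of 15 rose and 5 fell, among them LPP, a zyxin relative (-2.15), and the adhesion adaptor gene LIMS1 (-0.61). In the ankyrin and spectrin list, 3 of 7 rose and 2 fell. SPTBN5 (2.79) and SPTAN1 (0.83) rose. SPTBN1, unlike FYN among the relatives low in the clones, fell (-0.80, edgeR adjusted p = 4.95e-06). Of the myotubularin list 8 of 18 rose and 5 fell. MTMR1, the nearest kind of relative to MTMR2, rose by 1.48, and the catalytically inactive MTMR12 changed by -1.31. In the penta-EF-hand list of GCA, 4 of 8 rose and 3 fell, with PDCD6 at 1.41 and PEF1 at -0.51. In the list of CDK18, 1 of 7 rose (CDK16, 0.96) and 4 fell, CCNA2 (cyclin A) among them at -0.89. In the fibrillin list, 2 of 7 rose and 4 fell, TGFB1 (-0.998) and MFAP1 (-0.59) among the latter. KLRG1, an inhibitory lectin receptor, was the 1 tested relative of CLEC2B and fell by 1.35. The Niban relatives of NIBAN1 gave no tested gene.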

How the data were processed

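Read counts per gene of 15 RNA-seq libraries were used as the authors deposited them: whole-number counts, not normalized, 1 file per library, with 63677 genes by Ensembl identifier. STAR 2.5.3a, RSEM and the build GRCh37 (hg19) are named in the submitters' processing notes. The sources used here do not give the annotation, counting program or strand, so a gene's reads cannot be told from those of an overlapping or antisense gene. The labels list 17 samples, and 3 runs of untreated WSU-DLCL2 replicate 3 share 1 file. The 5 summary lines of each file (60.9% to 70.2% of reads in the shallow libraries, 27.3% to 29.7% in the deep ones) stayed out of all totals.

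CPM are counts scaled by each library's total in genes. Tests used edgeR 4.0.16, run in R 4.3.3 (filterByExpr, TMM scaling, robust quasi-likelihood, two-sided, Benjamini-Hochberg over all genes kept, threshold 0.05), with only the 2 groups compared in a fit. Alternatives were library totals alone, RLE size factors, DESeq2 1.42.0, no filter, other pseudocounts than 0.5 CPM, each library left out, and a replicate block. The fits were tested on simulated counts. The pooled counts of reads give intervals and floors (3 counts) for counting error only.

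The members and all lists were chosen with earlier results of these data known: 10 lists of relatives (calcium/calmodulin kinases and calcineurin, penta-EF-hand proteins, Niban, zyxin and focal adhesion, Src family, C-type lectins of the natural killer gene complex, ankyrins and spectrins, myotubularins, PCTAIRE and PFTAIRE kinases, fibrillins and microfibrils) and B cell, germinal centre, plasma cell, T and NK cell, myeloid, fibroblast and epithelial markers. Germinal centre markers summed to 1513 to 1997 CPM in the deep libraries, and epithelial markers to at most 0.283. Named besides the members were BCL11A, EP300, CREBBP, up to 2 relatives per list with the smallest p in Karpas-422, and the 6 protein-coding non-members with the largest difference in the clones and at least 10 CPM in both of replicates 1 and 2, of which 1 is not reported here. FYN, SPTBN1, EPB41L2, CD69, IFIH1, CAMK2D, ACTB and the markers singled out were named after their values were seen. GENCODE 29 (on GRCh38) gave symbols, types and exonic lengths, and no coordinates of genes. Promoters are RefSeq's, on GRCh38.p14.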

Additional observations from a re-analysis of the deposited data

Results flagged for a closer look

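CAMK4 and FBN1 carried signal in libraries that enter no comparison here. In WSU-DLCL2 with A-485 their mean levels were 18.5 and 16.9 CPM. They were singled out by rule, since their CPM in each of these libraries was a larger number than in any untreated WSU-DLCL2 library. The A-485 libraries are shallow and the untreated ones deep, so the 2 sets of levels are not on a common footing and show no change: the treatment and the library type cannot be told apart.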

How the results depend on the processing

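With clones set against all 3 untreated WSU-DLCL2 libraries, the count of genes called by edgeR went from 0 to 20 without the filter and to 315 in DESeq2. Leaving out 1 library at a time gave 0 to 351 calls, the highest without untreated replicate 3; the cause was not tested. In Karpas-422, scaling by library totals alone called 2 members higher with A-485, NIBAN1 and MTMR2, in place of 0. Leaving out 1 Karpas-422 library at a time, the log2 fold change of NIBAN1 ran from -0.0063 (without untreated replicate 1) to 0.13, never past the threshold. SRC kept its direction and its call under every alternative run, with log2 fold changes from -1.19 to -1.81. The replicate numbers were not taken as pairs, since the deviations of same-numbered Karpas-422 libraries correlated at -0.043 to 0.064. With a replicate block edgeR called 8250 genes in Karpas-422 in place of 8457, 1 member lower and 0 higher as before, and 0 genes in the clones. Untreated replicate 3 lay with the clones for 6 members with a pseudocount of 0.1 CPM and for 8 on plain CPM. The share of strongly lower genes in which replicate 3 lay with the clones was 53.7% at a bound of 2-fold and 64.7% at 8-fold, bounds chosen after seeing the data. For GCA, CLEC2B, ANK2, ZYX, CDK18 and CAMK4 the depth in Karpas-422 allows no test.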

Other observations

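Other genes low in the clones showed values that the clones did not share. Among the non-members that the naming rule gave were RGS1, FOS, LIPG, SGK1 and PAK1. LIPG, the endothelial lipase gene, had 21.6, 21.2 and 30.1 CPM in untreated WSU-DLCL2 replicates 1 to 3 and 29.4, 0.115 and 0 CPM in clones 1 to 3. PAK1, a kinase that acts on actin, had 10.2, 11.1 and 1.32 CPM against 0.0337, 6.30 and 0.0298 CPM. For LIPG, clone 1 was thus above the level of replicates 1 and 2, and for PAK1 clone 2 was the clone nearest to it.

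RGS1, a regulator of G-protein signalling, had 40.7, 39.4 and 3.20 CPM in the untreated replicates and 0.337, 3.52 and 0.268 CPM in the clones. FOS had 13.1, 13.9 and 8.29 CPM against 0.303, 2.03 and 0.418 CPM, and SGK1 had 20.7, 20.9 and 6.83 CPM against 3.61, 1.49 and 0.626 CPM. Replicate 3 lay nearer the clones for RGS1 and PAK1, and not for FOS, LIPG and SGK1.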
